A study of Mus musculus with 8 samples.

Results

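The amino acid stress and unfolded protein response genes are a set of 35 named mouse genes that work together when a cell runs short of amino acids or when its endoplasmic reticulum (ER) is overloaded. Members were found by gene name in the deposited table of read counts per gene. All 35 were found among the 55450 rows of the table, and all 35 were among the 15975 genes that held enough reads to be tested. By role they comprise 9 transcription factors and feedback genes of the stress response, 6 enzymes of serine, one-carbon and asparagine synthesis, 5 amino acid transporters or transporter subunits, 6 cytosolic tRNA synthetases, 1 death receptor, 3 sensors and factors of the unfolded protein response, and 5 ER chaperones and genes of ER-associated degradation. The name Ddit3 is carried by a pair of rows. One of them had 0 counts in every library, so the other (ENSMUSG00000025408.15, chr10:127290774-127296288, plus strand) was used. All 105 exon bases of the row with 0 counts lie in exons of the row used, on the same strand. Its 0 counts therefore do not show that it is not transcribed.

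The study measured RNA of mouse neutrophils that had been separated in a cell sorter by their surface CD71, the transferrin receptor, and asked how neutrophils are changed inside tumours. There were 8 libraries in 4 groups of 2. These were CD71+ neutrophils from mouse brain tumours, CD71- neutrophils from mouse brain tumours, CD71+ neutrophils generated in vitro, and CD71- neutrophils generated in vitro. The tumours came from SB28, a mouse glioma line, and the cultured neutrophils from bone marrow of naive mice. The labels name no allele, drug or time point, and they do not say whether tumour and bone marrow came from mice of 1 strain, age or sex. Whether the 2 libraries of a group came from different animals or cultures is not stated either, and p-values thus reflect the spread between these samples only, which may be technical.

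When amino acids are scarce, uncharged tRNA activates the kinase GCN2. When unfolded proteins build up in the ER, the kinase PERK is activated. Both phosphorylate the translation factor eIF2, which slows most protein synthesis while the messenger RNA of the transcription factor ATF4 is translated more. ATF4 then turns on genes that import amino acids, make serine and asparagine and charge tRNAs, and also genes such as Chop (Ddit3) and Gadd34 (Ppp1r15a) that end the response or lead to cell death. The ER has a pair of further sensors, IRE1 (Ern1), which splices the messenger RNA of XBP1, and ATF6, and both raise the genes of ER chaperones. Splicing, translation and phosphorylation are not measured by counts per gene.

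Libraries held 9598959 to 22615813 counts in total. Levels are given as CPM, counts scaled to library size. Where a gene has 0 counts, up to 3 counts remain possible, or 0.0915 to 0.419 CPM depending on the library, and this limit covers counting error only. Transcripts of Tfrc, the gene of CD71, stood at 103 and 108 CPM in tumour CD71+ libraries, against 187 and 145 CPM in tumour CD71- libraries. In culture they stood at 116 and 115 CPM in CD71+ libraries, against 130.5 and 94.3 CPM in CD71- libraries. The log2 fold change in the tumour was -0.65 (adjusted p = 0.0134 in edgeR) on the TMM scale. Its value under other scalings is not given here, and the falls of members in this comparison, given below, depended on the scaling. CD71+ and CD71- below are therefore the labels of the sort and not levels of the transcript. The neutrophil marker Csf3r was detected in every library, at 312 to 5780 CPM. A list of 25 mature neutrophil genes summed to 24540 and 22660 CPM in tumour CD71+ libraries, against 49080 and 49610 CPM in tumour CD71- libraries, and to 9035 and 7485 CPM in culture CD71+ libraries, against 12840 and 12040 CPM in culture CD71- libraries. A list of 20 macrophage and monocyte markers summed to 4140 and 4510 CPM in tumour CD71+ libraries, against 953 and 945 CPM in tumour CD71- libraries, and to 1773 and 1488 CPM in culture CD71+ libraries, against 913 and 989 CPM in culture CD71- libraries. The neutrophil sums thus differed along both axes of the design. The macrophage sums differed between CD71+ and CD71- libraries in tumour and in culture, and between tumour and culture in CD71+ libraries. In CD71- libraries the tumour sums lay within the culture range, but single markers differed, 10 of 19 tested being higher in the tumour and 4 lower. Csf1r had 266 and 237 CPM in tumour CD71- libraries, against 526 and 566 CPM in culture CD71- libraries, and C1qa 33.9 and 46.7 CPM, against 0 and 0 CPM. In such bulk samples, more cells of a type and more RNA per cell cannot be told apart.

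The promoters of several members carry short sequences that the factors of these pathways are known to bind. The C/EBP-ATF response element (CARE), the site of ATF4 with a C/EBP partner, was searched as TGATGNAA on both strands from 250 bases before to 50 bases after each RefSeq start. Of the 35 members, 30 had such a window. Slc7a5, Nars, Wars, Tnfrsf10b and Atf6 had none. CARE letters lay in the windows of 9 members, namely Nupr1, Trib3, Chac1, Asns, Slc7a11, Yars, Tars, Gars and Herpud1, while 4.511% of 27025 genes with a window held them. The ER stress response element (ERSE, CCAAT and CCACG with 9 bases between them), the site of ATF6 with NF-Y, lay in the windows of Hspa5 and Hsp90b1 and in those of 0.137% of genes. ERSE-II (ATTGG, any base, then CCACG) lay in that of Herpud1 and in 0.044% of genes. The cyclic AMP response element TGACGTCA lay in that of Ppp1r15a and in 2.031% of genes, and the core UPRE letters TGACGTGG, present in 0.714% of genes, lay in none of the 30. CARE letters do not overlap the other motifs in these windows. The members were chosen as genes of these pathways, so the shares beside all genes describe the set and do not test it.

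The stretches below are from RefSeq (GRCm38.p6), 5′ to 3′ on the strand of the gene, and are shown because their genes carry large differences or because they share the same letters while their genes differed. Capitals mark the motif, on either strand. Positions are relative to the RefSeq start. For Asns, Nupr1 and Hspa5, where the GENCODE annotation places more than 30 exon bases in the stretch, only 30 bases around the motif are given. The stretches of Tars and Slc7a11 hold 7 and 1 bases of annotated exon. The promoter of Slc7a11, the cystine-glutamate transporter, holds CARE letters 2 times (chr3:50443614-50443733, minus strand), that of Chac1, which degrades glutathione, holds them once (chr2:119351022-119351141, plus strand), and those of asparagine synthetase Asns (chr6:7693214-7693243, minus strand) and of the stress regulator Nupr1 (chr7:126625562-126625591, minus strand) likewise. The threonyl- and glycyl-tRNA synthetase genes Tars (chr15:11399659-11399778, minus strand) and Gars (chr6:55037881-55038000, plus strand) follow. Herpud1, a membrane protein of ER-associated degradation, holds CARE and ERSE-II (chr8:94386309-94386428, plus strand). The chaperone genes Hspa5 (BiP, chr2:34772020-34772049, plus strand) and Hsp90b1 (GRP94, chr10:86705525-86705664, minus strand) hold ERSE letters, Hsp90b1 2 times.
Slc7a11: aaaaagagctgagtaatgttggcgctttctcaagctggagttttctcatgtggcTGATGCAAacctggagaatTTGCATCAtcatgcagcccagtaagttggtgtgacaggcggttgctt
Chac1: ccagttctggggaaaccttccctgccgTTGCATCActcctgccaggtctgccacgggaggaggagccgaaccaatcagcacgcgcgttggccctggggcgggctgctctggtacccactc
Asns: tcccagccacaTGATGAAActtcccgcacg
Nupr1: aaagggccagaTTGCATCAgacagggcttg
Tars: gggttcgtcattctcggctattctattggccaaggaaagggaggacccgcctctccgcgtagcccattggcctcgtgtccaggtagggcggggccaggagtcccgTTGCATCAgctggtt
Gars: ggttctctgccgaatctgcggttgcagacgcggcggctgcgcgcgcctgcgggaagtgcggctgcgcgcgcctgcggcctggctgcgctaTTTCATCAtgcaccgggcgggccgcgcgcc
Herpud1: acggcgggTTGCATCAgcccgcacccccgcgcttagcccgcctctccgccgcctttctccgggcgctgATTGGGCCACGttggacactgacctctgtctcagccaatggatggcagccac
Hspa5: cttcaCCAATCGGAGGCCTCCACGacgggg
Hsp90b1: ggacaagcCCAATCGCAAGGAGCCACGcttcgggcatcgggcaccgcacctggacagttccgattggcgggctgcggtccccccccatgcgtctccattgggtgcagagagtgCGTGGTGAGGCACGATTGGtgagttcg

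Levels differed widely within the set. Summed over the 35 members, they came to 8969 and 8346 CPM in tumour CD71+ libraries and 15030 and 13960 CPM in tumour CD71- libraries. In culture they came to 1975 and 1848 CPM in CD71+ libraries and 1772 and 1625 CPM in CD71- libraries. The tumour sums were therefore all above the culture sums, and Slc7a11 contributed most to them in the tumour. Per kilobase of exon, which allows genes to be compared, Ppp1r15a, Hspa5 and Slc7a11 had the highest levels in tumour CD71+ libraries, at 309, 301 and 225 CPM per kb. In tumour CD71- libraries the order was Ppp1r15a, Slc7a11 and Hspa5, at 615, 436 and 401 CPM per kb. In culture the highest level per kb was that of Xbp1, at 83.5 CPM per kb in CD71+ and 67.2 CPM per kb in CD71- libraries. The 3 genes that led in the tumour held places 15, 4 and 8 of 35 in culture CD71+ libraries and places 8, 9 and 19 in culture CD71- libraries, for Ppp1r15a, Hspa5 and Slc7a11 in that order. At the low end in all 4 groups stood phosphoserine phosphatase Psph, at place 35 or 34, with 0.695 and 0.128 CPM per kb in tumour CD71+ and CD71- libraries and 0.643 and 0.553 CPM per kb in culture CD71+ and CD71- libraries.

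**Figure D1:**
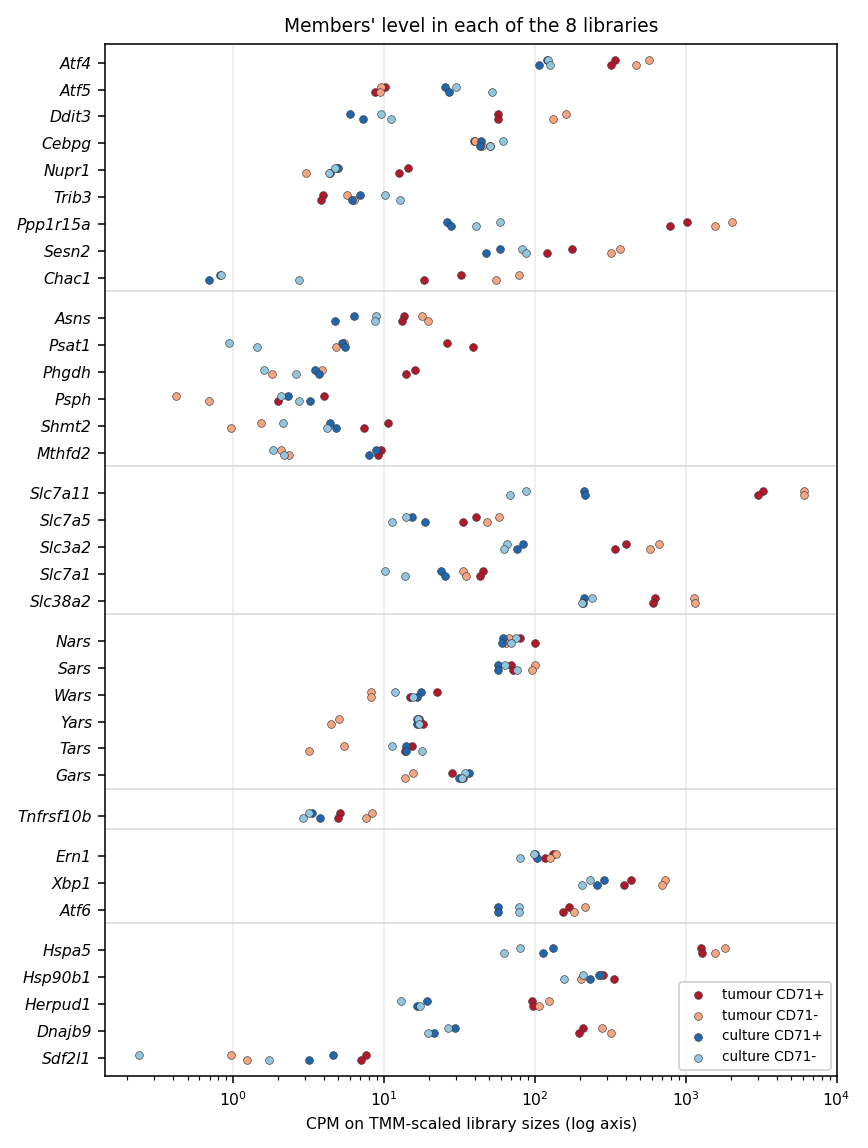
Level of each of the 35 genes in CPM on a log axis, grouped by role from top to bottom (stress factors, synthesis enzymes, transporters, tRNA synthetases, Tnfrsf10b, sensors, ER genes), with 1 point per library and 2 libraries per group. The tumour points (red, orange) of Slc7a11, Ppp1r15a, Chac1, Ddit3, Hspa5, Herpud1 and Dnajb9 lie apart from the culture points (blue), while for Yars the tumour CD71- points, at 5.03 and 4.43 CPM, lie below all others.

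Tumour and cultured neutrophils were compared within each sort fraction. Most stress factors, all 5 transporters and 3 of 5 ER genes were higher in the tumour in both fractions, and 2 stress factors were lower, on the TMM scale. In CD71+ neutrophils 21 of the 35 members were higher in the tumour, 2 were lower and 12 did not pass the test, the threshold being an adjusted p of 0.05 in edgeR's quasi-likelihood test over all genes. Of all genes tested 57.9% passed, 30.3% higher and 27.6% lower. In CD71- neutrophils 20 members were higher, 8 were lower and 7 did not pass, while 67.1% of all genes passed, 30.3% higher and 36.8% lower. The median log2 fold change of the members was 0.97 in CD71+ and 1.10 in CD71- neutrophils, against -0.09 and -0.28 over all genes tested. The 2 groups did not overlap for 30 members in CD71+ and for 30 in CD71- neutrophils, against 82.5% and 82.7% of all genes. In both fractions 17 members were higher, and Atf5 and Trib3 lower, against 24.2% and 23% of all genes tested that were higher or lower in both. These counts depended on the scaling of the libraries. With total counts the members higher and lower were 15 and 5 in CD71+ and 16 and 13 in CD71- neutrophils, and with libraries scaled on mature neutrophil genes they were 9 and 16 in CD71+ and 8 and 19 in CD71- neutrophils. The medians of all genes moved with them, by -0.68 and -0.93 with total counts and by -1.52 and -1.98 with the neutrophil scaling, in CD71+ and CD71- neutrophils in that order. Ddit3, Ppp1r15a, Chac1, Slc7a11, Slc3a2, Hspa5, Herpud1 and Dnajb9 were higher in both fractions, and Atf5 lower in both, under each of the 4 scalings tried (TMM, DESeq2 size factors, total counts and mature neutrophil genes).

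Of 9 stress factors and feedback genes, 6 were higher and 2 lower in CD71+, and 5 higher and 2 lower in CD71- neutrophils. With the neutrophil scaling the numbers higher and lower were 3 and 3 in CD71+ and 3 and 4 in CD71- neutrophils. Among them Ppp1r15a (Gadd34, ENSMUSG00000040435.12, chr7:45522916-45526268, minus strand), the phosphatase subunit that reverses eIF2 phosphorylation, had 1024 and 790.1 CPM in tumour CD71+ libraries and 2037 and 1576 CPM in tumour CD71- libraries. In culture it had 26.2 and 27.99 CPM in CD71+ libraries and 58.7 and 40.8 CPM in CD71- libraries. All 4 tumour libraries were above all 4 culture libraries, with log2 fold changes of 5.06 ± 0.25 (adjusted p = 1.29e-09) in CD71+ and 5.18 ± 0.25 (adjusted p = 7.73e-10) in CD71- neutrophils, given as the fold change ± SE. Chac1 (ENSMUSG00000027313.3, chr2:119351229-119354381, plus strand) had 32.6 and 18.5 CPM in tumour CD71+ libraries and 78.3 and 55.4 CPM in tumour CD71- libraries. Its culture level was 0.823 and 0.691 CPM in CD71+ libraries and 0.829 and 2.72 CPM in CD71- libraries, or 14 to 30 counts per library, and it was higher in the tumour by 5.06 ± 0.45 (adjusted p = 1.61e-06) and 5.33 ± 0.46 (adjusted p = 8.13e-07) on the log2 scale in CD71+ and CD71- neutrophils. In CD71- neutrophils its value was 4.61 without culture CD71- replicate 1 and 6.29 without culture CD71- replicate 2. Ddit3 (Chop), a transcription factor that promotes cell death under lasting ER stress, had 57.3 and 57.2 CPM in tumour CD71+ libraries and 160.0 and 133 CPM in tumour CD71- libraries. In culture it had 5.98 and 7.29 CPM in CD71+ libraries and 9.53 and 11.2 CPM in CD71- libraries. Its groups did not overlap, and it was higher in the tumour by 3.11 ± 0.20 (adjusted p = 1.43e-08) and 3.83 ± 0.20 (adjusted p = 1.84e-09). Its exons share 68 bases with Mars on the opposite strand, and the strand setting of the counting was not given in the sources used here.

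Atf4 itself (ENSMUSG00000042406.8, chr15:80255184-80257541, plus strand) had 338 and 320.1 CPM in tumour CD71+ libraries and 569 and 467 CPM in tumour CD71- libraries, and in culture 120.3 and 107 CPM in CD71+ libraries and 123 and 125 CPM in CD71- libraries. It was higher in the tumour by 1.53 ± 0.17 (adjusted p = 2.95e-06) in CD71+ and by 2.06 ± 0.17 (adjusted p = 1.31e-07) in CD71- neutrophils, but with the neutrophil scaling these were 0.013 and 0.073 and did not pass. Sesn2, a stress-induced inhibitor of mTORC1, followed at 1.48 ± 0.20 (adjusted p = 2.71e-05) and 2.02 ± 0.20 (adjusted p = 1.08e-06), with -0.043 and 0.034 under the neutrophil scaling. A pair of ATF4-related genes went the other way. Atf5, a factor translated under stress like ATF4, had 10.2 and 8.75 CPM in tumour CD71+ libraries and 9.63 and 9.42 CPM in tumour CD71- libraries, against 25.3 and 27.1 CPM in culture CD71+ libraries and 30.02 and 52.4 CPM in culture CD71- libraries, and was lower in the tumour, at log2 fold changes of -1.47 ± 0.26 (adjusted p = 0.000314) and -2.11 ± 0.27 (adjusted p = 1.29e-05). Atf5 shares 82 exon bases with the opposite-strand genes Il4i1 and Nup62. Trib3, a pseudokinase that inhibits ATF4 and CHOP, was lower at -0.74 ± 0.30 (adjusted p = 0.0461) in CD71+ and -0.93 ± 0.30 (adjusted p = 0.0143) in CD71- neutrophils. The Trib3 call in CD71+ neutrophils was lost without replicate 1 or 2 of tumour CD71+, replicate 1 or 2 of tumour CD71- or replicate 1 or 2 of culture CD71+ (adjusted p = 0.062 to 0.208), and that in CD71- neutrophils without replicate 1 or 2 of tumour CD71- or replicate 2 of culture CD71- (adjusted p = 0.0526 to 0.154). Nupr1 was higher in the tumour in CD71+ neutrophils, at 1.53 ± 0.30 (adjusted p = 0.000671), and stood at -0.20 ± 0.34 (adjusted p = 0.62) in CD71- neutrophils. Its CD71+ value was 0.015 with the neutrophil scaling. Cebpg, a C/EBP partner of ATF4, did not pass in either fraction, at 0.035 ± 0.19 (adjusted p = 0.884) and -0.40 ± 0.19 (adjusted p = 0.077), but was called lower with total counts and the neutrophil scaling in both.

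All 5 amino acid transporter genes were higher in the tumour in both fractions, but with the neutrophil scaling 2 were higher and 1, Slc7a1, lower in CD71+ neutrophils and 2 were higher and none lower in CD71- neutrophils. With total counts 3 were higher in CD71+ and all 5 in CD71- neutrophils. Slc7a11 (xCT, ENSMUSG00000027737.10, chr3:49892526-50443614, minus strand), which imports cystine for glutathione synthesis, had 3254 and 3008 CPM in tumour CD71+ libraries and 6054 and 6097 CPM in tumour CD71- libraries. In culture it had 211 and 214 CPM in CD71+ libraries and 87.2 and 68.7 CPM in CD71- libraries. Its log2 fold change was 3.88 ± 0.20 (adjusted p = 1.54e-09) in CD71+ and 6.28 ± 0.22 (adjusted p = 7.24e-11) in CD71- neutrophils, the largest of the 35 members in CD71- neutrophils, and under the other scalings it lay between 2.35 and 3.95 in CD71+ and between 4.30 and 6.53 in CD71- neutrophils. Slc3a2 (CD98 heavy chain), the partner subunit of both SLC7A11 and SLC7A5, had 404 and 341 CPM in tumour CD71+ libraries and 664 and 576 CPM in tumour CD71- libraries, and in culture 84.1 and 75.8 CPM in CD71+ libraries and 65.8 and 62.6 CPM in CD71- libraries. It was higher by 2.22 ± 0.17 (adjusted p = 9.82e-08) and 3.27 ± 0.18 (adjusted p = 2.37e-09). Slc38a2 (SNAT2), which imports small neutral amino acids, had 624 and 607 CPM in tumour CD71+ libraries and 1130 and 1158 CPM in tumour CD71- libraries, and in culture 212 and 209.8 CPM in CD71+ libraries and 241 and 206 CPM in CD71- libraries, and was higher by 1.54 ± 0.16 (adjusted p = 2.14e-06) and 2.35 ± 0.17 (adjusted p = 2.85e-08). The leucine transporter Slc7a5 (LAT1) was higher by 1.12 and 2.07, and the arginine transporter Slc7a1 (CAT1) by 0.86 and 1.52. Slc7a5, Slc7a1 and Slc38a2 did not hold under the neutrophil scaling, where Slc7a5 stood at -0.42 and 0.086, Slc7a1 at -0.67 and -0.48, and Slc38a2 at 0.019 and 0.37.

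The synthesis enzymes gave a mixed picture. In CD71+ neutrophils 4 of 6 were higher in the tumour and none lower, while in CD71- neutrophils 2 were higher and 2 lower. The numbers higher and lower were 2 and 0 in CD71+ and 1 and 2 in CD71- neutrophils with total counts, and with the neutrophil scaling 1 and 2 in CD71+ and 0 and 5 in CD71- neutrophils. Psat1 (ENSMUSG00000024640.9, chr19:15904678-15947337, minus strand), the aminotransferase of serine synthesis, was higher in both, at 26.4 and 38.8 CPM in tumour CD71+ libraries, against 5.28 and 5.56 CPM in culture CD71+ libraries, and 5.45 and 4.85 CPM in tumour CD71- libraries, against 0.948 and 1.45 CPM in culture CD71- libraries. The log2 fold changes were 2.59 ± 0.28 (adjusted p = 3.24e-06) and 2.13 ± 0.37 (adjusted p = 0.000162), the second of which was 0.15 with the neutrophil scaling. Asns, which makes asparagine, was higher by 1.27 ± 0.26 (adjusted p = 0.000732) and 1.10 ± 0.26 (adjusted p = 0.00187), with opposite signs under the neutrophil scaling (-0.23 and -0.89). Phgdh, the first enzyme of serine synthesis, was higher in CD71+ neutrophils, at 15.97 and 14.02 CPM in tumour CD71+ libraries, against 3.51 and 3.73 CPM in culture CD71+ libraries (log2 fold change 2.05 ± 0.36 (adjusted p = 0.000246)), and did not pass in CD71- neutrophils (0.46 ± 0.44 (adjusted p = 0.365)). Its CD71+ value was 0.52 with the neutrophil scaling. Shmt2, the mitochondrial serine hydroxymethyltransferase, was higher in CD71+ (0.97 ± 0.37 (adjusted p = 0.0372)) and lower in CD71- neutrophils (-1.30 ± 0.49 (adjusted p = 0.0321)). With single libraries left out, Shmt2 ran from 0.67 to 1.16 in CD71+ and from -1.74 to -0.79 in CD71- neutrophils. It kept its sign, but neither Shmt2 call held without each library. That in CD71+ neutrophils was lost without replicate 1 of tumour CD71+ or replicate 1 or 2 of culture CD71+ (adjusted p = 0.154 to 0.212), and that in CD71- neutrophils without replicate 1 or 2 of tumour CD71- or replicate 2 of culture CD71- (adjusted p = 0.09 to 0.259). Psph was lower in CD71- neutrophils, at 0.419 and 0.693 CPM in tumour CD71- libraries, against 2.07 and 2.72 CPM in culture CD71- libraries (log2 fold change -2.08 ± 0.63 (adjusted p = 0.00953), lost without replicate 1 of tumour CD71- (adjusted p = 0.116)). It shares 10.4% of its exon bases with Cct6a on the opposite strand. Mthfd2, a mitochondrial folate enzyme, did not pass in either fraction, at 0.15 ± 0.29 (adjusted p = 0.682) and 0.16 ± 0.38 (adjusted p = 0.723).

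The tRNA synthetases stood apart from the transporters. In CD71- neutrophils 4 of 6 were lower in the tumour and 1 higher, and in CD71+ neutrophils 1 was higher and none lower. With total counts none was higher and 2 were lower in CD71+, and with the neutrophil scaling all 6 were lower there, while in CD71- neutrophils all 6 were lower with either scaling. Yars (ENSMUSG00000028811.11, chr4:129189760-129219607, plus strand) had 17.02 and 18.3 CPM in tumour CD71+ libraries, against 16.7 and 16.7 CPM in culture CD71+ libraries, and 5.03 and 4.43 CPM in tumour CD71- libraries, against 16.8 and 17.2 CPM in culture CD71- libraries. The tumour CD71- libraries alone were low, and the log2 fold changes were 0.082 ± 0.22 (adjusted p = 0.767) in CD71+ and -1.84 ± 0.25 (adjusted p = 2.06e-05) in CD71- neutrophils. Tars followed with 5.45 and 3.19 CPM in tumour CD71- libraries, against 11.3 and 17.8 CPM in culture CD71- libraries (-1.74 ± 0.33 (adjusted p = 0.000326)), and Gars with 15.5 and 13.9 CPM in tumour CD71- libraries, against 34.3 and 33 CPM in culture CD71- libraries (-1.20 ± 0.20 (adjusted p = 0.000153)). These 3 were lower in CD71- neutrophils under each of the 4 scalings. Wars was lower there at -0.74 ± 0.28 (adjusted p = 0.0301), a call lost without replicate 1 or 2 of tumour CD71- or replicate 2 of culture CD71- (adjusted p = 0.128 to 0.208). Sars was higher there at 0.49 ± 0.17 (adjusted p = 0.0176), lost without replicate 1 of culture CD71- (adjusted p = 0.0929), and turned to -0.44 with total counts. Nars was higher in CD71+ neutrophils at 0.57 ± 0.17 (adjusted p = 0.00985), lost without replicate 2 of tumour CD71+ or replicate 1 or 2 of culture CD71+ (adjusted p = 0.0816 to 0.172), and turned to -0.097 with total counts. Tars and Gars hold CARE letters in the stretches printed above and Yars holds them 4 bases after its start, as Slc7a11, Chac1 and Herpud1 hold them before theirs. In CD71- neutrophils the first 3 genes were lower in the tumour and the other 3 higher. Of the remaining members with CARE letters, Asns was higher there (1.10), Trib3 lower (-0.93) and Nupr1 not called (-0.20).

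Of the genes of the unfolded protein response and the ER, Hspa5 (ENSMUSG00000026864.13, chr2:34771970-34777547, plus strand), the chaperone BiP that holds the sensors inactive, had 1256 and 1291 CPM in tumour CD71+ libraries and 1824 and 1566 CPM in tumour CD71- libraries. In culture it had 133 and 113 CPM in CD71+ libraries and 80.4 and 62.5 CPM in CD71- libraries. Its log2 fold change was 3.37 ± 0.20 (adjusted p = 6.11e-09) in CD71+ and 4.57 ± 0.21 (adjusted p = 4.53e-10) in CD71- neutrophils. Dnajb9 (ERdj4), a BiP co-chaperone raised by XBP1, was higher by 2.98 ± 0.21 (adjusted p = 3.36e-08) and 3.69 ± 0.22 (adjusted p = 4.43e-09), and Herpud1 by 2.43 ± 0.19 (adjusted p = 1.26e-07) and 2.93 ± 0.20 (adjusted p = 2.01e-08). The other 2 ER genes did not pass. Hsp90b1 (GRP94) had 284 and 334 CPM in tumour CD71+ libraries and 272 and 203 CPM in tumour CD71- libraries, and in culture 267 and 232 CPM in CD71+ libraries and 209 and 156 CPM in CD71- libraries, and stood at 0.31 ± 0.20 (adjusted p = 0.191) and 0.38 ± 0.20 (adjusted p = 0.104). Sdf2l1, a component of the ER chaperone complex, stood at 0.90 ± 0.50 (adjusted p = 0.137) and 0.32 ± 0.74 (adjusted p = 0.719). Hspa5 and Hsp90b1 both hold ERSE letters, and the lowest tumour library of Hspa5 stood at 1256 CPM, against 133 CPM in the highest culture library, while the tumour and culture ranges of Hsp90b1 overlapped. Hsp90b1 shares 10.3% of its exon bases with an opposite-strand gene, 1810014B01Rik. It also shares 84 and 133 bases with the same-strand genes Gm15344 and Gm25745. Among the sensors, Xbp1 was higher by 0.61 ± 0.16 (adjusted p = 0.005) and 1.70 ± 0.16 (adjusted p = 6.94e-07), Atf6 by 1.5 ± 0.16 (adjusted p = 2.67e-06) and 1.33 ± 0.16 (adjusted p = 6.31e-06), and Ern1 (IRE1) passed in CD71- neutrophils at 0.57 ± 0.17 (adjusted p = 0.00884) and stood at 0.30 ± 0.17 (adjusted p = 0.143) in CD71+ neutrophils. All 3 changed sign under the neutrophil scaling in both fractions. The Xbp1 call in CD71+ neutrophils was lost without replicate 1 of tumour CD71+ or replicate 2 of culture CD71+ (adjusted p = 0.0581 to 0.0926), and the Ern1 call in CD71- neutrophils without replicate 2 of culture CD71- (adjusted p = 0.0637). Tnfrsf10b, a death receptor that CHOP can induce, had 8.38 and 7.62 CPM in tumour CD71- libraries, against 3.198 and 2.901 CPM in culture CD71- libraries, a log2 fold change of 1.39 ± 0.34 (adjusted p = 0.00239). It stood at 0.50 ± 0.32 (adjusted p = 0.194) in CD71+ neutrophils, and with the neutrophil scaling at -1.03 and -0.60.

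**Figure D2:**
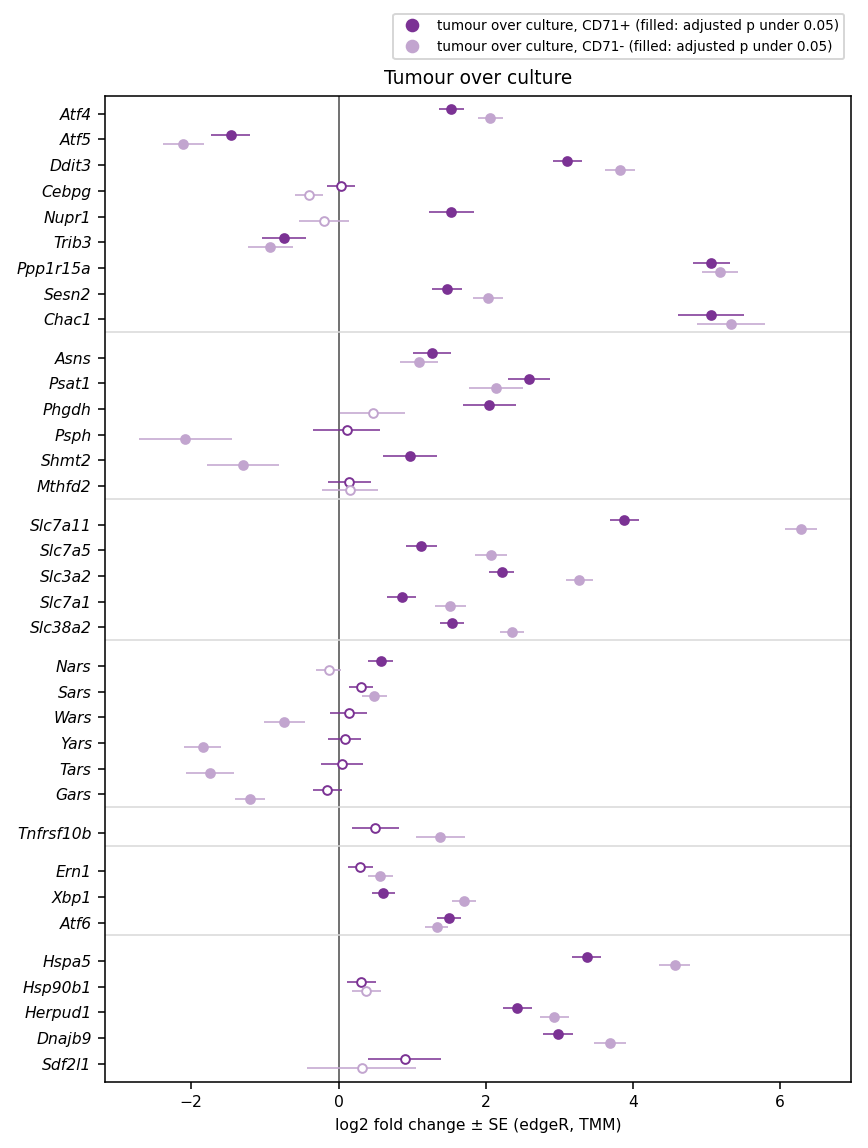
Log2 fold change of tumour over culture (± SE, edgeR on TMM-scaled counts) for each of the 35 genes in CD71+ (dark) and CD71- (light) neutrophils, with filled points where the adjusted p was under 0.05. Slc7a11 reaches 6.28 in CD71- neutrophils, while Yars, Tars and Gars lie near 0 in CD71+ and at -1.84, -1.74 and -1.20 in CD71- neutrophils. Under the mature neutrophil scaling the sign turns in both fractions for Atf6, Xbp1, Ern1, Sars, Tnfrsf10b, Asns and Slc7a1, among others.

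Immediate early and heat shock genes, which respond to handling of cells as well as to stress in tissue, moved with tumour origin. A list of 11 such genes, chosen after the data were seen, summed to 9581 and 7140 CPM in tumour CD71+ libraries, against 321 and 385 CPM in culture CD71+ libraries. In CD71- libraries it summed to 14870 and 13270 CPM in the tumour, against 265 and 471 CPM in culture. Fos, an immediate early gene, stood at 1327 and 937 CPM in tumour CD71+ libraries, against 24.1 and 30.2 CPM in culture CD71+ libraries. The share of counts from mitochondrial genes was 0.829% and 1.04% in tumour CD71+ libraries, against 1.45% and 2.17% in culture CD71+ libraries, and 0.413% and 0.202% in tumour CD71- libraries, against 7.09% and 12% in culture CD71- libraries. The mature neutrophil sums given above differed between tumour and culture in both fractions, and the macrophage sums in CD71+ libraries, with overlapping sums in CD71- libraries. Of 10 microglia markers, 10 were higher in the tumour in CD71+ neutrophils, and 7 were higher and 1 lower in CD71- neutrophils. With the neutrophil scaling the numbers higher and lower were 9 and 1 in CD71+ and 6 and 4 in CD71- neutrophils. The part of these differences in the values of the 35 genes was not tested. Tumour and culture also differ in the way the cells were obtained, which cannot be told apart from the tumour.

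Other genes of the same pathways were counted in the same way. Of all genes tested 30.3% were higher and 27.6% lower in the tumour in CD71+, and 30.3% higher and 36.8% lower in CD71- neutrophils. Counts near these shares do not set a list apart from other genes. Of 24 other ATF4 target genes tested, 10 were higher and 5 lower in the tumour in CD71+, and 9 higher and 6 lower in CD71- neutrophils. The numbers higher and lower were 10 and 7 in CD71+ and 8 and 10 in CD71- neutrophils with total counts, and with the neutrophil scaling 6 and 11 in CD71+ and 8 and 13 in CD71- neutrophils. Without tumour CD71- replicate 2, 3 were lower in CD71- neutrophils. The stress factor Atf3 had 672 and 659 CPM in tumour CD71+ libraries, against 28.8 and 20.9 CPM in culture CD71+ libraries, and 824 and 684 CPM in tumour CD71- libraries, against 30.2 and 26.5 CPM in culture CD71- libraries, with log2 fold changes of 4.74 ± 0.21 (adjusted p = 5.99e-10) and 4.73 ± 0.22 (adjusted p = 4.62e-10). Soat2, which esterifies cholesterol, was higher by 4.53 and 4.49. The mitochondrial folate enzyme Mthfd1l was lower, at log2 fold changes of -2.49 and -4.38. Stc2, a secreted ATF4 target, had 0.673 and 0 CPM in tumour CD71+ libraries, against 27.8 and 33.3 CPM in culture CD71+ libraries, and 0 and 0.139 CPM in tumour CD71- libraries, against 39.7 and 43.5 CPM in culture CD71- libraries. Of 24 other ER chaperone and degradation genes, 14 were higher and 4 lower in CD71+, and 14 higher and 5 lower in CD71- neutrophils, but with total counts 3 were higher and 8 lower in CD71+ and 6 higher and 9 lower in CD71- neutrophils. With the neutrophil scaling the numbers higher and lower were 0 and 18 in CD71+ and 2 and 16 in CD71- neutrophils. The number lower in CD71+ neutrophils was 1 without tumour CD71+ replicate 1 and 1 and 2 without culture CD71+ replicate 1 and replicate 2, and in CD71- neutrophils 3 without tumour CD71- replicate 1 or culture CD71- replicate 1. The chaperone Hyou1 had 207 and 155 CPM in tumour CD71- libraries, against 24.04 and 26.3 CPM in culture CD71- libraries (log2 fold change 2.85 ± 0.19 (adjusted p = 1.53e-08)), and Manf, a secreted ER stress protein, 65.6 and 53.8 CPM in tumour CD71- libraries, against 9.53 and 10.6 CPM in culture CD71- libraries (2.57 ± 0.20 (adjusted p = 8.34e-08)). The disulfide isomerase Pdia4 was lower in CD71- neutrophils (-1.59 ± 0.21 (adjusted p = 1.85e-05)).

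The next counts stand against the same shares of all genes. Of 14 other cytosolic tRNA synthetases, 4 were higher and 3 lower in CD71+ and 2 higher and 8 lower in CD71- neutrophils. The numbers higher and lower were 1 and 7 in CD71+ and 1 and 12 in CD71- neutrophils with total counts, and with the neutrophil scaling 0 and 12 in CD71+ and 0 and 13 in CD71- neutrophils. The number higher in CD71+ neutrophils was 2 without any one of the tumour CD71+ or culture CD71+ libraries. Dars fell to 12.3 and 14.3 CPM in tumour CD71- libraries, against 120.3 and 116 CPM in culture CD71- libraries (log2 fold change -3.15 ± 0.19 (adjusted p = 4.84e-09)), and Iars to 2.51 and 2.91 CPM, against 24.99 and 24.9 CPM (-3.20 ± 0.25 (adjusted p = 7.36e-08)). Aars was higher at 2.47 ± 0.23 (adjusted p = 4.07e-07), but stood at 0.47 and did not pass with the neutrophil scaling. Of 15 other amino acid transporters tested, 6 were higher and 4 lower in CD71+, and 4 higher and 7 lower in CD71- neutrophils. The numbers higher and lower were 4 and 8 in CD71+ and 2 and 10 in CD71- neutrophils with total counts, and with the neutrophil scaling 2 and 9 in CD71+ and 2 and 12 in CD71- neutrophils. Without tumour CD71- replicate 2, 3 were lower in CD71- neutrophils. Of the 15, Slc38a1 (SNAT1) was higher (3.67 ± 0.17 (adjusted p = 6.14e-10)) and the arginine transporter Slc7a2 (CAT2) lower, at 3.49 and 2.63 CPM in tumour CD71- libraries, against 108 and 103 CPM in culture CD71- libraries (-5.10 ± 0.23 (adjusted p = 4.24e-10)). Of 17 genes of eIF2 kinases and eIF2 control, 3 were higher and 8 lower in CD71- neutrophils, and in CD71+ neutrophils 2 were higher and 4 lower. With total counts 14 were lower in CD71- and 10 in CD71+ neutrophils, with the neutrophil scaling 15 in each. In CD71+ neutrophils the number lower was 2 without tumour CD71+ replicate 1 and 1 without culture CD71+ replicate 1. Impact, an inhibitor of GCN2, was higher in both fractions (2.10 ± 0.19 (adjusted p = 5.77e-07) and 2.98 ± 0.20 (adjusted p = 1.78e-08)), and Eif2ak4, the gene of GCN2, was lower in CD71+ neutrophils (-1.21 ± 0.18 (adjusted p = 7.96e-05)). Of 9 further sensor and processing genes of the unfolded protein response, none was higher and 4 were lower in CD71+ neutrophils, and none higher and 5 lower in CD71- neutrophils. The numbers lower were 5 and 8 with total counts and 8 and 9 with the neutrophil scaling. Rtcb, the ligase that joins spliced Xbp1, was lower in CD71- neutrophils (-2.38 ± 0.25 (adjusted p = 1.46e-06)).

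CD71+ and CD71- neutrophils were then compared inside the tumour. Serine and one-carbon enzymes and most tRNA synthetases were higher in CD71+ neutrophils, while 5 of 9 stress factors and 3 of 5 transporters were lower on the TMM scale. Of the 35 members 12 were higher, 11 lower and 12 did not pass, while 43.5% of all genes tested passed, 26.2% higher and 17.3% lower. The counts of further lists in this comparison, given below, stand against the same shares. The median log2 fold change was -0.25 for the members and 0.13 for all genes tested. The CD71+ and CD71- libraries did not overlap for 32 members, against 72.5% of all genes. The falls depended on the scaling, and of the rises that of Nars did. Nupr1, Psat1, Phgdh, Psph, Shmt2, Mthfd2, Wars, Yars, Tars, Gars and Sdf2l1 were higher under each of the 4 scalings, and no member was lower under all 4. Members higher and lower numbered 11 and 18 with DESeq2 size factors, 16 and 2 with total counts, and 22 and 0 with the neutrophil scaling, while the median of all genes moved by -0.20, 0.56 and 1.06. Of the 23 members called, 16 stayed called without any single library.

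In the tumour Psat1 had 26.4 and 38.8 CPM in tumour CD71+ libraries, against 5.45 and 4.85 CPM in tumour CD71- libraries, a log2 fold change of 2.66 ± 0.30 (adjusted p = 3.12e-05). Phgdh had 15.97 and 14.02 CPM in tumour CD71+ libraries, against 3.91 and 1.801 CPM in tumour CD71- libraries (2.39 ± 0.40 (adjusted p = 0.000481)), and Psph 4.04 and 1.98 CPM in tumour CD71+ libraries, against 0.419 and 0.693 CPM in tumour CD71- libraries (2.42 ± 0.62 (adjusted p = 0.00697)), so that all 3 enzymes of the serine pathway were higher. Psph held only 3 and 5 counts in the tumour CD71- libraries and shares 10.4% of its exon bases with Cct6a on the opposite strand. Shmt2 (ENSMUSG00000025403.5, chr10:127517123-127522444, minus strand) had 10.7 and 7.43 CPM in tumour CD71+ libraries, against 1.54 and 0.97 CPM in tumour CD71- libraries (2.85 ± 0.47 (adjusted p = 0.000448)), and Mthfd2 9.62 and 9.13 CPM in tumour CD71+ libraries, against 2.09 and 2.36 CPM in tumour CD71- libraries (2.07 ± 0.35 (adjusted p = 0.000504)). The Psph call was lost without replicate 1 of tumour CD71- (adjusted p = 0.0905), and its value was 1.81 without tumour CD71+ replicate 1. Asns did not pass, at 13.6 and 13.2 CPM in tumour CD71+ libraries, against 17.9 and 19.7 CPM in tumour CD71- libraries (-0.49 ± 0.26 (adjusted p = 0.134)). Of the other serine, glycine and folate enzymes, 6 of 11 tested were higher and none lower. Atic, of purine synthesis, had 18.4 and 20.1 CPM in tumour CD71+ libraries, against 2.37 and 2.91 CPM in tumour CD71- libraries (2.86 ± 0.27 (adjusted p = 5.87e-06)), and Mthfd1, a cytosolic folate enzyme, stood at 2.03 ± 0.34 (adjusted p = 0.000452).

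Among the tRNA synthetases 5 of 6 were higher in tumour CD71+ than in tumour CD71- neutrophils, and Sars was lower. Yars had 17.02 and 18.3 CPM in tumour CD71+ libraries, against 5.03 and 4.43 CPM in tumour CD71- libraries, a log2 fold change of 1.90 ± 0.25 (adjusted p = 9.82e-05). Tars (ENSMUSG00000022241.6, chr15:11382301-11399665, minus strand) had 15.3 and 13.7 CPM in tumour CD71+ libraries, against 5.45 and 3.19 CPM in tumour CD71- libraries (1.75 ± 0.33 (adjusted p = 0.001)), and Gars 28.1 and 33.3 CPM in tumour CD71+ libraries, against 15.5 and 13.9 CPM in tumour CD71- libraries (1.06 ± 0.21 (adjusted p = 0.00122)). Wars was higher at 1.19 ± 0.28 (adjusted p = 0.00383), lost without replicate 1 or 2 of tumour CD71- (adjusted p = 0.0545 to 0.0578). Nars was higher at 0.46 ± 0.17 (adjusted p = 0.043), lost without replicate 2 of tumour CD71+, replicate 1 or 2 of tumour CD71- or replicate 1 or 2 of culture CD71+ (adjusted p = 0.0858 to 0.336). Sars was lower at -0.47 ± 0.17 (adjusted p = 0.0329), lost without replicate 1 or 2 of tumour CD71+, replicate 1 of tumour CD71- or replicate 1 or 2 of culture CD71+ (adjusted p = 0.0523 to 0.123), and turned to 0.091 with total counts. Of the 14 other synthetases 9 were higher and 1 lower, and with total counts or the neutrophil scaling 13 were higher and none lower. Leaving out tumour CD71- replicate 1, or replicate 2 of tumour CD71+, left none lower. Iars had 25.1 and 22.1 CPM in tumour CD71+ libraries, against 2.51 and 2.91 CPM in tumour CD71- libraries (3.12 ± 0.25 (adjusted p = 1.66e-06)), and Farsb stood at 2.56 ± 0.38 (adjusted p = 0.000218).

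The stress factors were lower in tumour CD71+ neutrophils for 5 of 9 genes and higher for Nupr1, which had 14.5 and 12.5 CPM in tumour CD71+ libraries, against 4.89 and 3.05 CPM in tumour CD71- libraries (1.77 ± 0.33 (adjusted p = 0.00105)). Ddit3 was lower at -1.35 ± 0.18 (adjusted p = 0.000103), Sesn2 at -1.22 ± 0.20 (adjusted p = 0.000407), Ppp1r15a at -0.99 ± 0.21 (adjusted p = 0.00208) and Atf4 at -0.66 ± 0.16 (adjusted p = 0.00566). Chac1 was lower at -1.39 ± 0.36 (adjusted p = 0.00882), lost without replicate 2 of tumour CD71+ or replicate 1 of tumour CD71- (adjusted p = 0.0559 to 0.0616). With the neutrophil scaling Ddit3 stood at -0.29, Sesn2 at -0.16 and Chac1 at -0.34, while Ppp1r15a and Atf4 changed sign to 0.063 and 0.41. Atf5, Cebpg and Trib3 did not pass, at -0.009, 0.083 and -0.63. Of the 24 other ATF4 target genes 4 were higher and 6 lower. The numbers higher and lower were 8 and 2 with total counts and 10 and 0 with the neutrophil scaling, and without tumour CD71- replicate 1 and replicate 2 the number higher was 2 and 1. Pck2, which makes phosphoenolpyruvate in mitochondria, was higher (1.78 ± 0.34 (adjusted p = 0.00101)), and the transcription factor Cebpb was lower (-1.17 ± 0.18 (adjusted p = 0.000303)), at -0.11 and not called with the neutrophil scaling. Of the 17 genes of eIF2 kinases and eIF2 control 4 were higher and 2 lower. With total counts 11 and with the neutrophil scaling 15 were higher, and none lower. Eif2s1, the gene of the eIF2 alpha subunit, was higher under each of the 4 scalings (1.28, adjusted p = 0.00132). So was Eif2a (1.78, adjusted p = 0.000161), which despite its name is not a subunit of eIF2. Eif2ak3, the gene of PERK, was lower (-0.78 ± 0.19 (adjusted p = 0.00481)), and changed sign to 0.29 with the neutrophil scaling.

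Of the transporters Slc7a11, Slc38a2 and Slc3a2 were lower in tumour CD71+ neutrophils, at -0.96 ± 0.18 (adjusted p = 0.000859), -0.89 ± 0.16 (adjusted p = 0.000703) and -0.73 ± 0.17 (adjusted p = 0.00301). All 3 changed sign with the neutrophil scaling, to 0.11, 0.17 and 0.33. Slc7a5 had 40.6 and 33.6 CPM in tumour CD71+ libraries, against 57.5 and 48.4 CPM in tumour CD71- libraries (-0.51 ± 0.21 (adjusted p = 0.0603)) and Slc7a1 45.3 and 43.7 CPM in tumour CD71+ libraries, against 33.6 and 34.8 CPM in tumour CD71- libraries (0.38 ± 0.20 (adjusted p = 0.139)), and neither passed. Of 15 other amino acid transporters 8 were higher and 2 lower. With total counts 12 and with the neutrophil scaling 13 were higher, and none lower. The number lower was 1 without any one of the tumour CD71+ or culture CD71+ libraries. Slc7a2 had 23.9 and 29.9 CPM in tumour CD71+ libraries, against 3.49 and 2.63 CPM in tumour CD71- libraries (3.13 ± 0.23 (adjusted p = 7.87e-07)).

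Of the ER genes Sdf2l1 was higher, at 7.598 and 7.06 CPM in tumour CD71+ libraries, against 0.977 and 1.25 CPM in tumour CD71- libraries (2.71 ± 0.63 (adjusted p = 0.00385)), a call lost without replicate 1 of tumour CD71- (adjusted p = 0.0641). Dnajb9 was lower at -0.56 ± 0.19 (adjusted p = 0.0292), lost without replicate 1 or 2 of tumour CD71+ or replicate 2 of tumour CD71- (adjusted p = 0.0795 to 0.128). Hspa5, Hsp90b1 and Herpud1 did not pass, at -0.41 ± 0.18 (adjusted p = 0.0763), 0.38 ± 0.20 (adjusted p = 0.131) and -0.25 ± 0.18 (adjusted p = 0.276). Xbp1 had 434 and 393 CPM in tumour CD71+ libraries, against 725 and 694 CPM in tumour CD71- libraries and was lower at -0.78 ± 0.16 (adjusted p = 0.00181), while Ern1 and Atf6 stood at -0.09 and -0.30 and did not pass. Xbp1 and Dnajb9 changed sign with the neutrophil scaling, to 0.28 and 0.50. Of the 9 further sensor and processing genes 5 were higher and none lower, among them Rtcb at 2.76 (adjusted p = 4.14e-06). The number higher was 6 with total counts and 7 with the neutrophil scaling. Of 24 other ER genes 9 were higher and 2 lower. The numbers higher and lower were 16 and 0 with total counts and 22 and 0 with the neutrophil scaling. Without tumour CD71- replicate 2, 5 were higher, and leaving out tumour CD71- replicate 1, or replicate 2 of tumour CD71+, left 1 lower. The disulfide isomerases Pdia4 (49.3 and 61.5 CPM in tumour CD71+ libraries, against 10.5 and 9.42 CPM in tumour CD71- libraries, log2 fold change 2.48 ± 0.22 (adjusted p = 3.17e-06)) and Txndc5 (3.05 ± 0.37 (adjusted p = 4.62e-05)) were higher, and P4hb was lower (-0.85 ± 0.19 (adjusted p = 0.00302), 0.21 with the neutrophil scaling). Tnfrsf10b stood at -0.67 ± 0.33 (adjusted p = 0.117).

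Markers of other cells moved with this comparison. Of the 19 macrophage and monocyte markers tested 15 were higher and none lower in tumour CD71+ neutrophils, and of the 10 microglia markers 10 were higher. Markers higher and lower were 5 and 1 of 8 tested for dendritic cells and 3 and 0 of 4 for lymphocytes. They were 2 and 0 of 4 for plasma cells, 5 and 0 of 9 for glioma and neural cells, and 4 and 1 of 7 for endothelial and stromal cells. None of 6 eosinophil, basophil and mast cell markers passed. The summed CPM of the dendritic, plasma, glioma and endothelial lists overlapped between the groups. The microglia list summed to 1107 and 1584 CPM in tumour CD71+ libraries, against 159 and 173 CPM in tumour CD71- libraries, and its genes were all above 0 in at least 1 library. C1qa, which macrophages and microglia make, had 411 and 480.1 CPM in tumour CD71+ libraries, against 33.9 and 46.7 CPM in tumour CD71- libraries. Of the 25 mature neutrophil genes none was higher and 20 were lower, against 7 lower with total counts. The 11 immediate early and heat shock genes summed to 9581 and 7140 CPM in tumour CD71+ libraries, against 14870 and 13270 CPM in tumour CD71- libraries. The part of these markers in the results for the 35 genes was not tested.

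**Figure D3:**
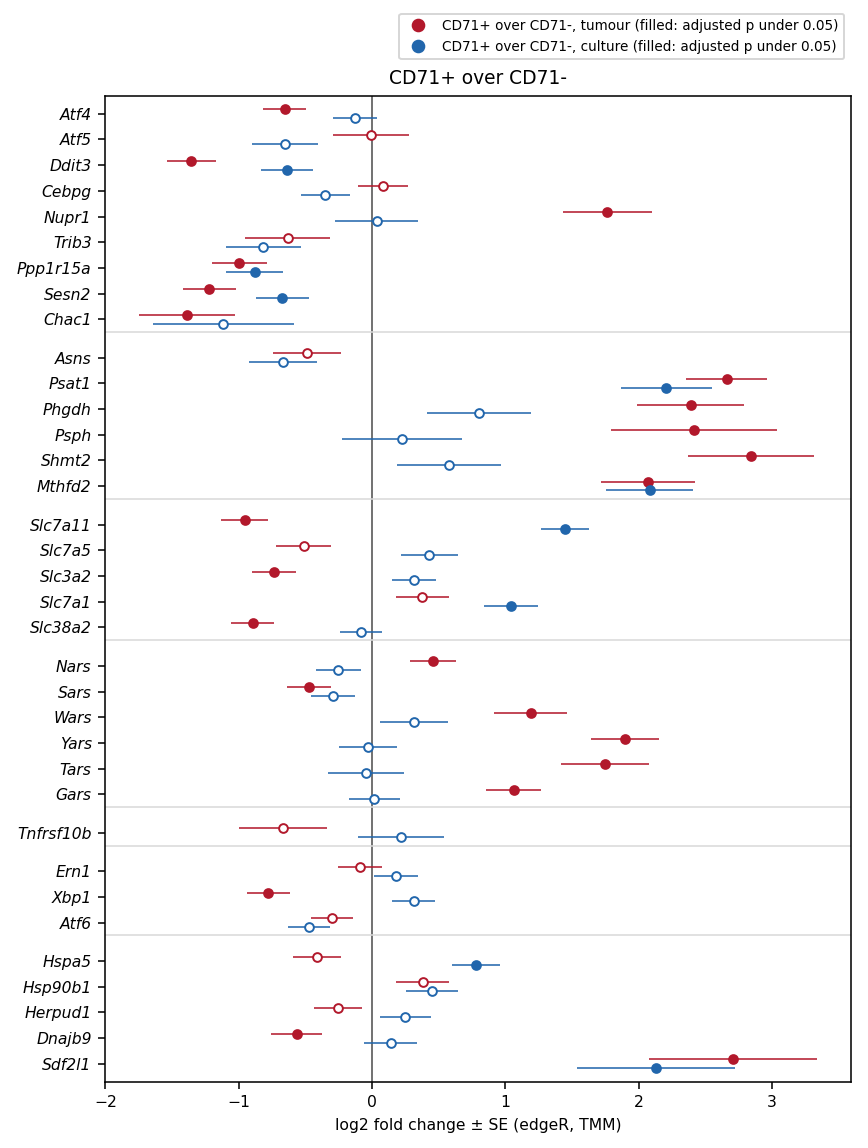
Log2 fold change of CD71+ over CD71- (± SE, edgeR on TMM-scaled counts) for each of the 35 genes in the tumour (red) and in culture (blue), with filled points where the adjusted p was under 0.05. Psat1 and Mthfd2 lie near 2 or above in both, the tRNA synthetases Yars, Tars and Gars lie above 1 in the tumour and near 0 in culture, and Slc7a11 lies on opposite sides of 0. The red points left of 0 shift with the scaling, and the filled ones of Slc7a11, Slc3a2, Slc38a2, Atf4, Ppp1r15a, Sars, Xbp1 and Dnajb9 change sign with the mature neutrophil scaling.

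In culture fewer members differed between CD71+ and CD71- neutrophils. Of the 35, 6 were higher, 3 lower and 26 did not pass, while 16.2% of all genes tested passed, 7.88% higher and 8.36% lower. Without culture CD71+ replicate 1 or replicate 2, 4 or 5 members passed. The median log2 fold change was 0.14 for the members and 0.03 for all genes. The libraries did not overlap for 28 members, against 60.8% of all genes. Psat1 had 5.28 and 5.56 CPM in culture CD71+ libraries, against 0.948 and 1.45 CPM in culture CD71- libraries, a log2 fold change of 2.21 ± 0.34 (adjusted p = 0.000746), and Mthfd2 had 8.904 and 8.02 CPM in culture CD71+ libraries, against 1.84 and 2.18 CPM in culture CD71- libraries (2.08 ± 0.32 (adjusted p = 0.000771)). Slc7a11 was higher at 1.45 ± 0.18 (adjusted p = 0.000156), and Slc7a1, at 23.9 and 25.3 CPM in culture CD71+ libraries, against 10.2 and 13.8 CPM in culture CD71- libraries, by 1.04 ± 0.20 (adjusted p = 0.00347). Hspa5 was higher at 0.78 ± 0.18 (adjusted p = 0.00984), lost without replicate 1 of culture CD71+ (adjusted p = 0.125). Sdf2l1 had 4.63 and 3.21 CPM in culture CD71+ libraries, against 0.237 and 1.72 CPM in culture CD71- libraries (2.13 ± 0.59 (adjusted p = 0.0257)), and its call was lost without replicate 1 or 2 of tumour CD71-, replicate 1 or 2 of culture CD71+ or replicate 1 of culture CD71- (adjusted p = 0.0546 to 0.191). Its value was 4.01 without culture CD71- replicate 2 and 1.21 without culture CD71- replicate 1. These 6 genes were higher under each of the 4 scalings.

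The 3 genes lower in culture CD71+ neutrophils were stress factors. Ppp1r15a stood at -0.88 ± 0.21 (adjusted p = 0.0128), lost without replicate 1 or 2 of culture CD71+ or replicate 1 of culture CD71- (adjusted p = 0.0727 to 0.125). Sesn2 stood at -0.67 ± 0.20 (adjusted p = 0.0335), lost without replicate 1 or 2 of tumour CD71-, replicate 1 or 2 of culture CD71+ or replicate 1 or 2 of culture CD71- (adjusted p = 0.0537 to 0.317), and Ddit3 at -0.64 ± 0.20 (adjusted p = 0.0406), lost without replicate 1 or 2 of tumour CD71+, replicate 1 or 2 of tumour CD71-, replicate 1 or 2 of culture CD71+ or replicate 2 of culture CD71- (adjusted p = 0.0516 to 0.378). With total counts these 3 stood at -0.57, -0.36 and -0.32 and did not pass, and no member was lower under all 4 scalings. Members higher and lower numbered 6 and 5 with DESeq2 size factors, 10 and 0 with total counts, and 18 and 0 with the neutrophil scaling, while the median of all genes moved by -0.03, 0.31 and 0.60. None of the 6 tRNA synthetases passed in culture. Yars, for example, had 16.7 and 16.7 CPM in culture CD71+ libraries, against 16.8 and 17.2 CPM in culture CD71- libraries, and the synthetases' log2 fold changes ran from -0.29 for Sars to 0.32 for Wars. Members called in the same direction in tumour and in culture were Psat1, Mthfd2 and Sdf2l1, higher in both, and Ddit3, Ppp1r15a and Sesn2, lower in both, against 4.87% and 4.42% of all genes tested. Macrophage markers were higher in culture CD71+ neutrophils for 12 of 19 genes and lower for none, and mature neutrophil genes were higher for 1 and lower for 10 of 25. C1qa had 0.732 and 0.38 CPM in culture CD71+ libraries and 0 counts in both culture CD71- libraries. Their part in these results was not tested.

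Over all genes tested in culture 7.88% were higher and 8.36% lower in CD71+ neutrophils. Of the further lists in culture, the other ER genes had 10 of 24 higher and none lower in CD71+ neutrophils. The number higher was 5 without culture CD71+ replicate 1, 16 with total counts and 20 with the neutrophil scaling. Txndc5 had 9.85 and 9.33 CPM in culture CD71+ libraries, against 1.12 and 0.906 CPM in culture CD71- libraries (3.21 ± 0.39 (adjusted p = 0.000133)), and Pdia4 87.2 and 69.9 CPM in culture CD71+ libraries, against 32.04 and 27.6 CPM in culture CD71- libraries (1.39 ± 0.19 (adjusted p = 0.000361)). The other amino acid transporters had 5 of 15 higher and none lower. The number higher was 1 and 2 without culture CD71+ replicate 1 and replicate 2, 3 without culture CD71- replicate 2, and 12 with the neutrophil scaling. Among them was Slc7a2 at 618 and 549 CPM in culture CD71+ libraries, against 108 and 103 CPM in culture CD71- libraries (2.47 ± 0.18 (adjusted p = 3.44e-06)). The other tRNA synthetases had 1 of 14 higher (3 with total counts and 8 with the neutrophil scaling), Iars (0.76 ± 0.19 (adjusted p = 0.0158)), whose call was lost without culture CD71+ replicate 1 or 2 (adjusted p up to 0.147). Aldh18a1, the entry enzyme of proline synthesis, was higher (1.62 ± 0.34 (adjusted p = 0.00506)).

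The difference between the CD71 effects in tumour and in culture was tested directly as an interaction. It passed for 11 of 35 members, 5 with a higher and 6 with a lower CD71 effect in the tumour than in culture, while 15.5% of all genes tested passed, 10.8% and 4.71% in these directions. The number was 4 and 5 without culture CD71+ replicate 1 and replicate 2, and 5 without tumour CD71- replicate 2. The median of the difference was -0.07 on the log2 scale for the members and 0.18 for all genes. The 5 were Shmt2 at 2.27 ± 0.62 (adjusted p = 0.0253), Yars at 1.93 ± 0.34 (adjusted p = 0.00247), Tars at 1.79 ± 0.43 (adjusted p = 0.0141), Nupr1 at 1.73 ± 0.46 (adjusted p = 0.0216) and Gars at 1.05 ± 0.28 (adjusted p = 0.0234). The 6 were Slc7a11 at -2.40 ± 0.25 (adjusted p = 0.000147), Hspa5 at -1.19 ± 0.26 (adjusted p = 0.00766), Xbp1 at -1.09 ± 0.23 (adjusted p = 0.00662), Slc3a2 at -1.05 ± 0.23 (adjusted p = 0.00949), Slc7a5 at -0.94 ± 0.30 (adjusted p = 0.0467) and Slc38a2 at -0.81 ± 0.22 (adjusted p = 0.0271). Thus 4 of 5 transporter genes and 3 of 6 synthetases differed, in opposite directions. All 5 of the first group, and Slc7a11 and Hspa5 of the second, kept their call under each of the 4 scalings. Members with a higher and a lower difference numbered 5 and 9 with DESeq2 size factors, 9 and 4 with total counts and 10 and 2 with the neutrophil scaling.

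Slc7a11 was thus lower in CD71+ than in CD71- neutrophils in the tumour on the TMM scale, and higher in culture under each of the 4 scalings. Its tumour value was -0.40 with total counts and 0.11 with the neutrophil scaling, not called in either. The opposite directions therefore depended on the scaling, while the difference did not and was -1.95 with the neutrophil scaling. Of the 11 members, Slc7a11, Yars, Xbp1 and Hspa5 stayed called without any single library. The Shmt2 call was lost without replicate 1 of tumour CD71+, replicate 1 or 2 of tumour CD71-, replicate 1 or 2 of culture CD71+ or replicate 2 of culture CD71- (adjusted p = 0.0601 to 0.157), and that of Nupr1 without replicate 2 of tumour CD71- or replicate 1 or 2 of culture CD71+ (adjusted p = 0.0897 to 0.129). For Tars it was lost without replicate 2 of tumour CD71- or replicate 1 or 2 of culture CD71+ (adjusted p = 0.0649 to 0.121), and for Gars without replicate 2 of tumour CD71+, replicate 1 or 2 of tumour CD71- or replicate 1 or 2 of culture CD71+ (adjusted p = 0.0822 to 0.157). Among the transporters Slc3a2 lost it without replicate 1 of culture CD71+ (adjusted p = 0.0543), Slc7a5 without replicate 2 of tumour CD71+, replicate 1 or 2 of tumour CD71-, replicate 1 or 2 of culture CD71+ or replicate 2 of culture CD71- (adjusted p = 0.0664 to 0.206), and Slc38a2 without replicate 1 or 2 of tumour CD71+, replicate 2 of tumour CD71- or replicate 1 or 2 of culture CD71+ (adjusted p = 0.0566 to 0.104). Psat1 and Mthfd2 stood at 0.45 ± 0.47 (adjusted p = 0.554) and -0.013 ± 0.46 (adjusted p = 1) and did not pass. Over all genes tested the CD71 effect was higher in the tumour for 10.8% and lower for 4.71%. Of the 14 other tRNA synthetases 5 had a higher CD71 effect in the tumour and none a lower one, among them Iars (2.36 ± 0.32 (adjusted p = 0.00064)). The number was 9 with total counts, 10 with the neutrophil scaling, and 3 without tumour CD71+ replicate 2 or any one of the tumour CD71- or culture CD71+ libraries. Rtcb stood at 2.82 ± 0.33 (adjusted p = 0.000267).

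**Figure D4:**
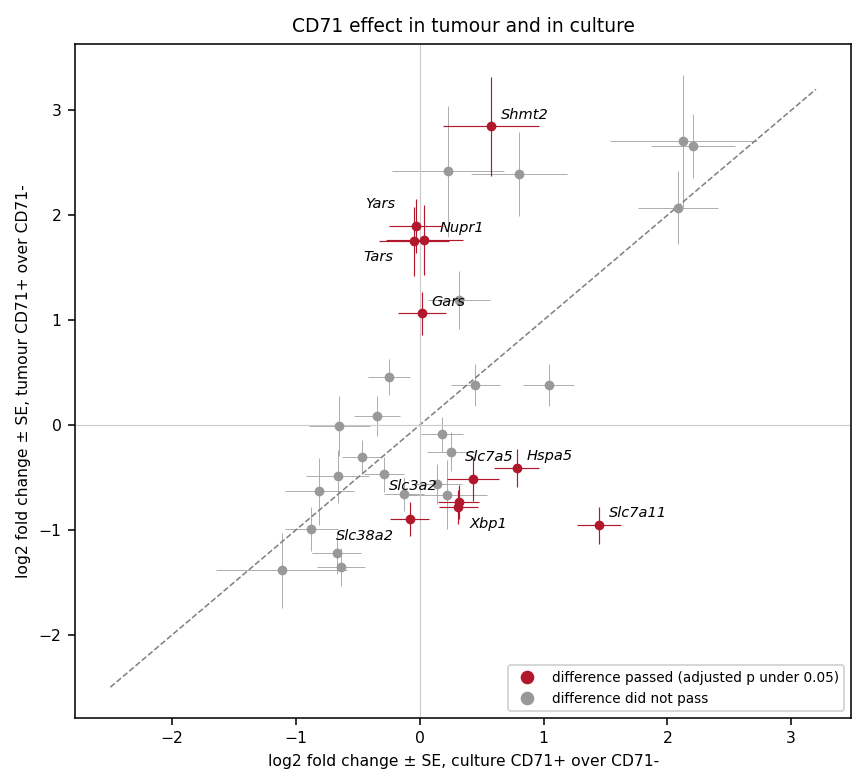
CD71+ over CD71- log2 fold change in the tumour (vertical axis, ± SE) against that in culture (horizontal axis, ± SE) for each of the 35 genes, with the line of equal effects dashed and the 11 genes whose difference had an adjusted p under 0.05 in red and named. Shmt2, Yars, Nupr1, Tars and Gars lie above the line and the 4 transporters, Hspa5 and Xbp1 below it.

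**Figure D5:**
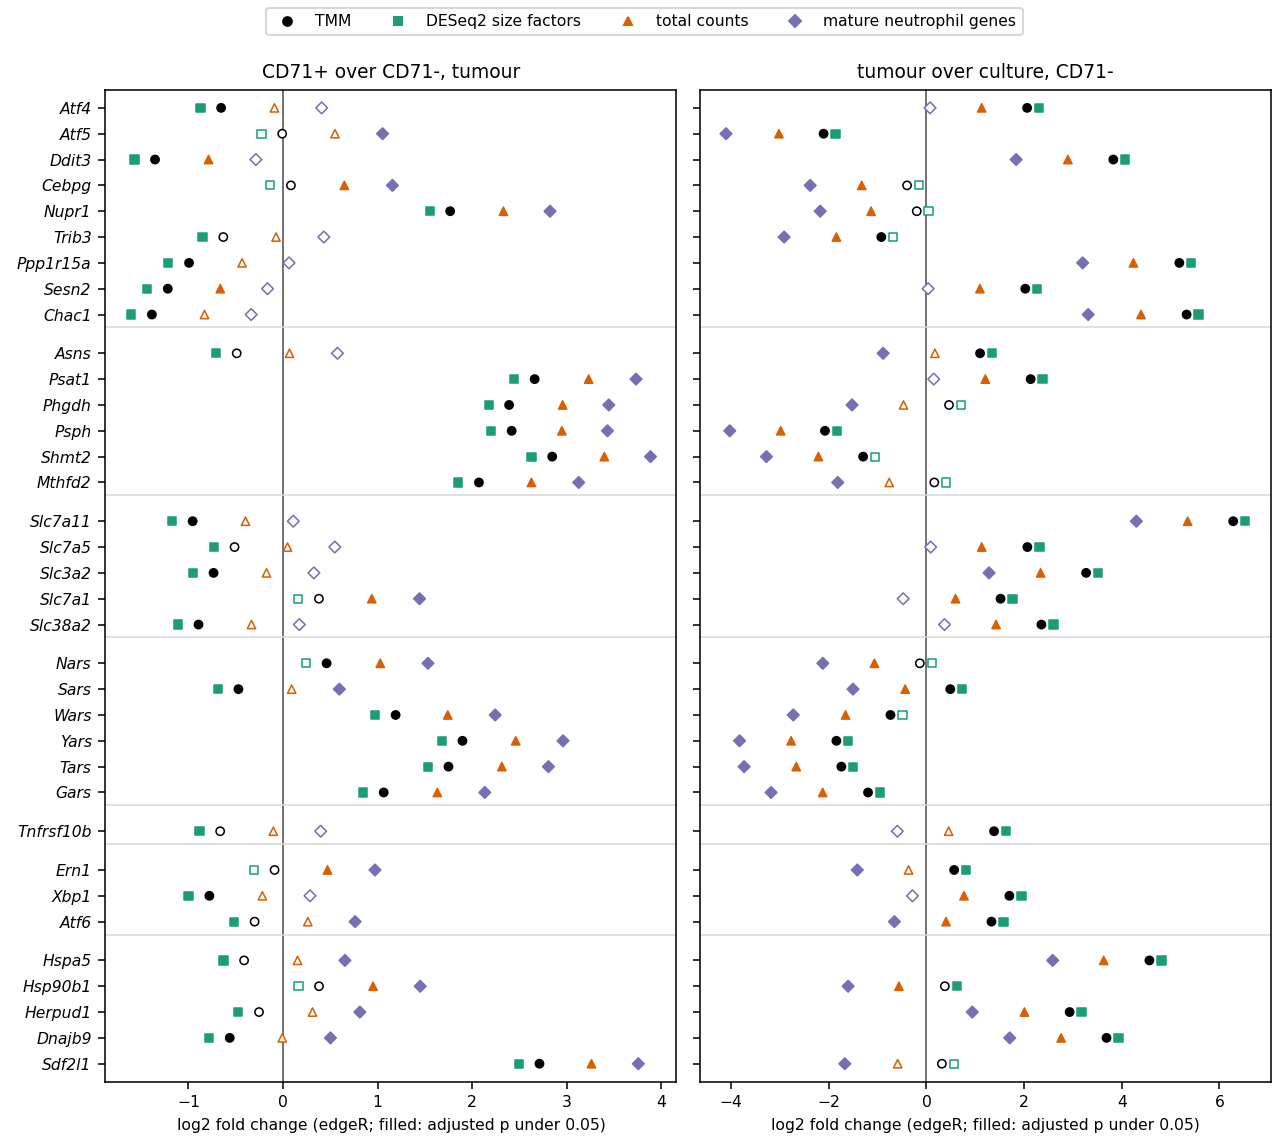
Log2 fold change of each of the 35 genes under 4 scalings of the libraries, for CD71+ over CD71- in the tumour (left) and for tumour over culture in CD71- neutrophils (right), with filled points where the adjusted p was under 0.05. A scaling shifts the genes together, so Slc7a11 runs from -1.18 to 0.11 on the left and from 4.30 to 6.53 on the right.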

How the data were processed

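RNA of 8 libraries of sorted mouse neutrophils was measured, in 4 groups of 2, by the labels. The authors deposited whole-number read counts per gene, not normalized. Per the labels' protocols, libraries were made with a stranded total RNA kit that removes ribosomal RNA. Per the submitters' processing notes, FastQC, cutadapt, STAR, featureCounts, DESeq2 and the build mm10 were used, with versions and strand setting not given in the sources used here. All 55450 rows were found in GENCODE M21, the source of coordinates and exon lengths.

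The count test was edgeR 4.0.16 under R 4.3.3. filterByExpr kept 15975 genes and TMM scaled the libraries. One fit covered the 8 libraries, with a mean for each of the 4 groups, robust dispersion (common biological coefficient of variation, 0.19) and residual degrees of freedom of 4. The quasi-likelihood test with Benjamini-Hochberg adjustment over all genes was run for 5 comparisons. It was first tried on simulated counts for a single comparison, with a small part of the genes changed, as many up as down. That trial cannot judge the choice of scaling in these data, where far more genes were called. The threshold was an adjusted p of 0.05. CPM values use the TMM-scaled library sizes. Depth and its limit of 3 counts are given above, and the sources used here name no molecular identifiers. The neutrophil scaling divides each library by its summed counts of the mature neutrophil list. On the TMM scale 18 of these 25 genes were higher and 3 lower in the tumour in each fraction. Hdc had 10670 and 9452 CPM in tumour CD71- libraries, against 13.4 and 19.04 CPM in culture CD71- libraries. Ly6g had 9.36 and 14.1 CPM, against 78.2 and 60.2 CPM. The abundant genes weigh most in the sum, so this scaling is an alternative and not a correction for neutrophil content. Replicate pairs differed by more than counting noise, with chi-square per degree of freedom from 12.6 to 69.2.

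The members and all gene lists were chosen with earlier results of these data known. All 35 members are named. From each further pathway list, up to 2 highest and 2 lowest genes per comparison could be named if they passed, reached a mean of 5 CPM and had groups that did not overlap. Genes outside this rule are named only beside marker and immediate early results. Alternatives were other scalings, filters, DESeq2 1.42.0, fits of 2 groups, a replicate block and leaving out each library. Counts of genes that overlap on exons may be uncertain. Same-numbered libraries were not taken as pairs.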

Additional observations from a re-analysis of the deposited data

Results flagged for a closer look

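The 11 members below were singled out because the CD71+ over CD71- log2 fold change differed between tumour and culture by the interaction test in edgeR, with Benjamini-Hochberg adjustment over all genes tested. No explanation was tested. The difference, tumour minus culture on the log2 scale, was 2.27 for Shmt2 (adjusted p = 0.0253), 1.93 for Yars (0.00247), 1.79 for Tars (0.0141), 1.73 for Nupr1 (0.0216) and 1.05 for Gars (0.0234). It was -2.40 for Slc7a11 (0.000147), -1.19 for Hspa5 (0.00766), -1.09 for Xbp1 (0.00662), -1.05 for Slc3a2 (0.00949), -0.94 for Slc7a5 (0.0467) and -0.81 for Slc38a2 (0.0271). Slc7a11, Yars, Hspa5 and Xbp1 passed without any single library. The other 7 did not.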

How the results depend on the processing

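Calls changed with the scaling of the libraries and when single libraries were left out. Of the 35 members, 23, 9, 11, 23 and 28 were called for the CD71 effect in tumour, the CD71 effect in culture, their difference, and tumour against culture in CD71+ and in CD71- neutrophils. In culture the number was 18 when libraries were scaled on mature neutrophil genes. Leaving out each library in turn gave 17 to 25 in the tumour, 4 to 10 in culture, 4 to 14 for the difference, 19 to 24 for CD71+ and 24 to 28 for CD71- neutrophils. In culture the lowest numbers, 4 and 5, came without culture CD71+ replicate 1 and replicate 2, as they did for the difference, where 5 were also called without tumour CD71- replicate 2. Over all genes tested, 6951 were called in the tumour and 4495 without tumour CD71- replicate 2. In culture 2595 were called, 5784 with the neutrophil scaling, and 826 and 1050 without culture CD71+ replicate 1 and replicate 2. For the difference 2470 were called, 3780 with the neutrophil scaling, 1014 and 1012 without culture CD71+ replicate 1 and replicate 2, and 1255 and 966 without tumour CD71- replicate 1 and replicate 2. The median log2 fold change of the members turned to 0.31 and 0.81 in the tumour with total counts and the neutrophil scaling, and to -0.56 and -0.89 for tumour against culture in CD71+ and CD71- neutrophils with the neutrophil scaling. The cause of these shifts was not tested.

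Single members changed sign only under a pair of scalings among the alternatives run, counting those called in either fit. The values below are log2 fold changes. With total counts, in the tumour, these were Sars (0.091) and Ern1 (0.47). With total counts, for tumour against culture, they were Cebpg (-0.64), Nars (-0.097), Yars (-0.59) and Xbp1 (-0.07) in CD71+ neutrophils and Sars (-0.44), Ern1 (-0.37) and Hsp90b1 (-0.56) in CD71- neutrophils. With the neutrophil scaling, in the tumour, they were Atf4 (0.41), Atf5 (1.05), Ppp1r15a (0.063), Slc7a11 (0.11), Slc3a2 (0.33), Slc38a2 (0.17), Sars (0.59), Ern1 (0.97), Xbp1 (0.28), Atf6 (0.76), Hspa5 (0.65), Herpud1 (0.81) and Dnajb9 (0.50). With the neutrophil scaling in culture, it was Slc38a2 (0.52). With the neutrophil scaling, for tumour against culture in CD71+ neutrophils, they were Cebpg (-1.48), Sesn2 (-0.043), Asns (-0.23), Psph (-1.44), Shmt2 (-0.56), Mthfd2 (-1.37), Slc7a5 (-0.42), Slc7a1 (-0.67), Nars (-0.94), Sars (-1.21), Wars (-1.39), Yars (-1.44), Tars (-1.48), Tnfrsf10b (-1.03), Ern1 (-1.23), Xbp1 (-0.91), Atf6 (-0.026) and Hsp90b1 (-1.20). In CD71- neutrophils they were Asns (-0.89), Phgdh (-1.52), Mthfd2 (-1.82), Slc7a1 (-0.48), Sars (-1.5), Tnfrsf10b (-0.60), Ern1 (-1.42), Xbp1 (-0.29), Atf6 (-0.66), Hsp90b1 (-1.60) and Sdf2l1 (-1.67).

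Deviations of same-numbered libraries from their group means correlated at -0.14 to 0.07. With 2 libraries per group this cannot show whether such libraries came from the same tumour or culture, and the labels do not say. With a replicate block 21, 8, 10, 21 and 28 members were called, in the order above. With numbers crossed between tumour and culture, an alternative chosen after the data were seen, 25, 11, 15, 23 and 29 members were called. Depth limits Psph, Sdf2l1 and Shmt2, which had 3, 4 and 7 counts in their lowest library.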
